A study of Mus musculus with 40 samples.

Results

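The comparison described here set mouse embryonic stem cells without Dux and without the CtBP proteins (Ctbp_DuxTKO) against cells without Dux alone (DuxKO), across all genes. The libraries were taken by their labels, 2 of each genotype, which makes 4 of the 40 samples of the series. Both groups are E14tg2a, an established embryonic stem cell line kept in medium with serum and leukaemia inhibitory factor, and both carry the Dux knockout, so that the knockout of Ctbp1 and Ctbp2 is what their labels say differs. Further groups were read beside them for the same genes. These were WT and CtbpDKO, which differ by the same Ctbp knockout with Dux intact (2 libraries each), and CtbpDKO cells at days 0 and 3 of a time course labelled with the word Dox (2 libraries each). A further table held cells that overexpress Pramel7, labelled P7OE without and DuxKO_P7OE with the Dux knockout, with WT and DuxKO libraries of its own. Libraries labelled Dppa2KO, and Dppa2_DuxTKO by title (DKO and Dppa2 KO by description), entered the fit of 12 libraries with Ctbp_DuxTKO only to share its estimate of the spread. In the same way libraries labelled P7KO (Pramel7 knockout) entered the fit of the Pramel7 table. Those of days 9, 12 and 18 entered the fit of the time course. The labels name 1 genotype per group and give neither the number of clones nor whether the libraries of a group came from separate cultures, so p-values measure the spread between these libraries, which may be technical.

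CtBP proteins are corepressors that bind NADH. They do not bind DNA themselves but are brought to genes by factors such as Zeb1, Zeb2, Klf8, Hic1 and Tcf7l2, and they bring histone deacetylases, the demethylase Kdm1a and the methyltransferase Ehmt2. In epithelial cells they are best known for the repression of Cdh1, the gene of E-cadherin, together with Zeb factors. Dux is a transcription factor that is active in the 2-cell embryo and turns on the genes of that stage, also in the rare 2-cell-like cells of embryonic stem cell cultures.

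The RNA was read as raw counts per gene, and levels are given as CPM, that is, scaled by the library size. The DuxKO libraries held 30109348 and 29898495 counts and the Ctbp_DuxTKO libraries 23909580 and 27700019, so that 3 counts, at or below which a gene is called at the floor, correspond to 0.0997 to 0.13 CPM. Structural RNA took 9.74% to 16.8% of the counts, and mitochondrial genes took 0.472% in DuxKO replicate 1 against 1.01% to 1.19% in the other 3 libraries. Over genes whose mean log2 CPM was 2 or more, the chromosome medians of the log2 fold change lay within 0.2 of the median of all genes on each chromosome but Y, with 6 genes, and the mitochondrial one, with 2. Defining stem cell genes were high in both groups. Pou5f1 stood at 657 and 619 CPM in DuxKO and 524 and 541 CPM in Ctbp_DuxTKO. Sox2 stood at 160.0 and 172 CPM in DuxKO and 159 and 158 CPM in Ctbp_DuxTKO. Zfp42 stood at 325 and 328 CPM in DuxKO and 301 and 345 CPM in Ctbp_DuxTKO. Nanog, at 116 and 113 CPM in DuxKO, was higher in Ctbp_DuxTKO, at 138 and 143 CPM (log2 fold change 0.30, edgeR adjusted p 0.0102). Its rise was not called without DuxKO replicate 2. Esrrb, at 479 and 480 CPM in DuxKO, was lower in Ctbp_DuxTKO, at 308 and 361 CPM (−0.52, edgeR adjusted p 7.49e-04).

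The targeted genes were low where the labels say so. Ctbp1 had 2426 and 2385 counts in DuxKO and 2 and 4 in Ctbp_DuxTKO, a fall of 9.42 on the log2 scale (SE 0.27), with an adjusted p of 7.25e-11 by edgeR's quasi-likelihood test after Benjamini-Hochberg correction over all genes tested. Ctbp2 still had 922 and 1187 counts in Ctbp_DuxTKO against 5973 and 5631 in DuxKO, and fell by 2.28 (SE 0.08, edgeR adjusted p 5.13e-10). Which part of the Ctbp2 transcript the remaining reads cover is not known from counts per gene. The table lists Dux as Duxf3, and its counts were 0 and 0 in DuxKO, 0 and 0 in Ctbp_DuxTKO and 40 and 24 in CtbpDKO.

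The groups differed in a large part of the transcriptome. Of 21193 genes tested, 8685 (41%) were called at an adjusted p under 0.05 by edgeR's quasi-likelihood test, 4533 higher (21.4%) and 4152 lower (19.6%) in Ctbp_DuxTKO. The rises were larger than the falls: 2889 of the higher genes and 995 of the lower genes changed at least 2-fold. They also differed in level, which is the mean log2 CPM over the 12 libraries of the fit. Of the 5299 genes with the lowest level 1123 were higher and 141 lower. Of the 5298 with the highest level 1075 were higher and 1815 lower. A gene could pass the filter on low counts through any of the groups. Genes at the floor in DuxKO could thus enter through Ctbp_DuxTKO, or the reverse, which bears on the shares at low level. Of the higher genes 613 were at the floor in both DuxKO libraries, and 48 of the lower genes were at the floor in both Ctbp_DuxTKO libraries. Among genes of the RefSeq class lncRNA 282 of 1198 rose and 68 fell, among protein-coding genes 3469 of 14479 rose and 3373 fell, and among pseudogenes 156 of 1981 rose and 409 fell. The median log2 fold change of all genes was 0.04, and −0.11 over genes whose mean log2 CPM was 2 or more.

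**Figure D1:**
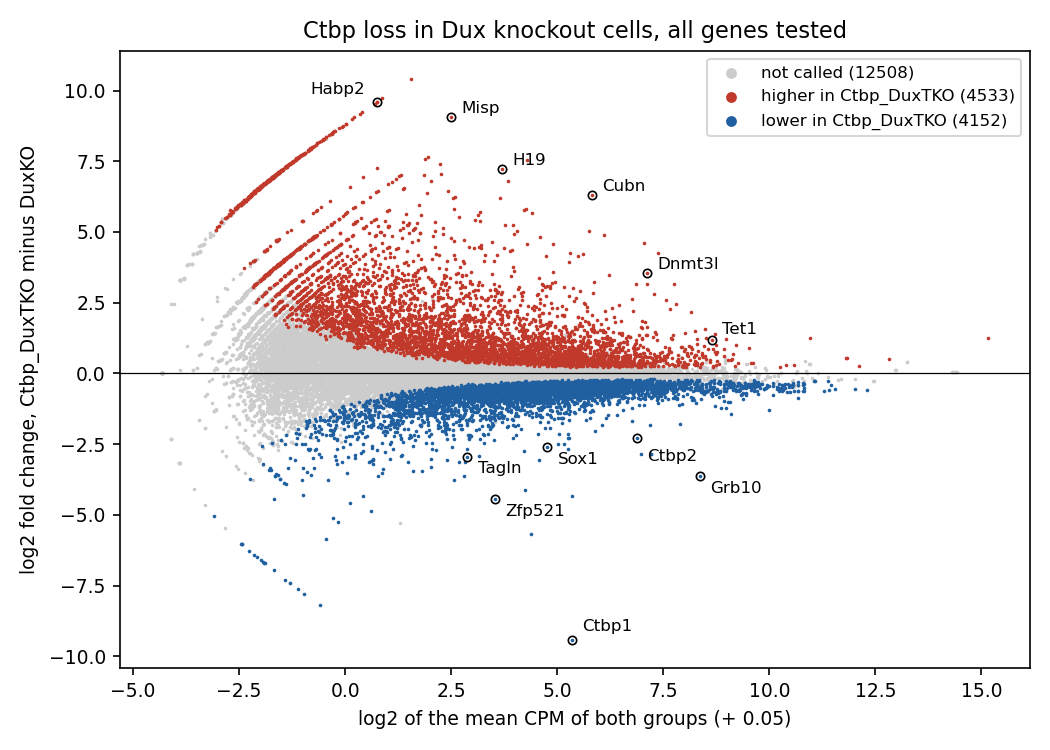
Log2 fold change of Ctbp_DuxTKO minus DuxKO (vertical axis) against the log2 of the mean CPM of both groups (horizontal axis) for the 21193 genes tested, with genes called higher in red (4533), genes called lower in blue (4152) and the other genes in grey. The slanted row of red points at the upper left holds genes with 0 counts in DuxKO, whose fitted values depend on the prior count, and Ctbp1 lies lowest of the genes named.

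Among genes whose higher group averaged 100 counts or more, the largest rises were of genes nearly silent in DuxKO. Misp, which encodes an actin-binding protein of the spindle and of the cell cortex, had 1 and 0 counts in DuxKO and 237 and 360 in Ctbp_DuxTKO and was at least 112-fold higher. Plet1, a surface protein of trophoblast and of some epithelia, had 2 and 2 counts in DuxKO and 157 and 358 in Ctbp_DuxTKO and was at least 94-fold higher. The mitochondrial carrier gene Slc25a34 had 0 and 2 counts in DuxKO and 193 and 200 in Ctbp_DuxTKO and was at least 75.1-fold higher. Slfn9 was at least 71.4-fold higher and Klb, the co-receptor of the hormone-like Fgfs, at least 70.6-fold. In each of these genes both Ctbp_DuxTKO libraries lay above both DuxKO libraries, which the rule for naming them required. Of the 8685 called genes 8680 had no overlap between the groups. The glutathione peroxidase gene Gpx2 rose from 0.272 and 0.133 CPM to 35.7 and 42.1 CPM (log2 fold change 7.56, SE 0.26, edgeR adjusted p 3.87e-10). Below Gpx2 in size came H19, described with the imprinted genes, and then Slc5a4b (at least 44-fold), Hkdc1 (at least 41.3-fold), Nostrin (at least 38.4-fold), Pnma5 (at least 50.8-fold) and Tfpi. Tfpi, an inhibitor of coagulation, had 7 and 0 counts in DuxKO and 240 and 318 in Ctbp_DuxTKO. Without DuxKO replicate 1 the value of Tfpi was 11.3 and without DuxKO replicate 2 it was 5.43, where 6.44 was fitted with both.

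The genes with the largest falls, Ctbp1 aside, had several CPM or more in DuxKO. Grb10, an imprinted adaptor of the insulin and growth factor receptors, stood at 603 and 611 CPM in DuxKO and 47.3 and 50.9 CPM in Ctbp_DuxTKO and fell by 3.63 (SE 0.09, edgeR adjusted p 2.81e-11). It had 345 and 337 CPM in WT and 34.3 and 34.4 CPM in CtbpDKO, so that both groups without Ctbp were low. Pttg1, which encodes securin, the inhibitor of separase, had 38.5 and 32.4 CPM in DuxKO and 1.73 and 2.27 CPM in Ctbp_DuxTKO and fell by 4.13 (SE 0.18). Falls of 3 or more on the log2 scale were also measured for the zinc finger gene Zfp521 (−4.46), the histone gene H2bu2 (−4.35), Clip3 (−3.62), Ttc23 (−3.47), the diacylglycerol kinase gene Dgki (−3.46), the transcriptional coactivator gene Eya1 (−3.30), the co-chaperone gene Bag2 (−3.14) and Igfbp4 (−3.12), which binds insulin-like growth factors. Tsga13 had 1546 and 860 counts in DuxKO and 40 and 0 in Ctbp_DuxTKO, with 1 Ctbp_DuxTKO library at 0, and its value went from −5.68 to −13.26 without Ctbp_DuxTKO replicate 1 and to −4.57 without Ctbp_DuxTKO replicate 2.

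Genes of epithelial adhesion, keratins and the barrier rose together. Of 55 genes on that list 54 were tested, 43 rose and 1, Tjp1, fell, against 21.4% and 19.6% of all genes, and 37 of those that rose did so at least 2-fold. The list's median log2 fold change was 1.83. The counts of every list below are to be read against the same shares of all genes. Its summed level was 967 and 946 CPM in DuxKO and 2071 and 2180 CPM in Ctbp_DuxTKO, with both Ctbp_DuxTKO libraries above both DuxKO libraries. In bulk RNA more cells that express a gene and more RNA per cell cannot be told apart. The next lines show the promoters of 5 members that rose, because the letters CACCTG, the E-box core that Zeb and Snail factors bind, recur in them. On the other strand they read CAGGTG. Capitals mark those letters, found by search on both strands, in windows from 250 bases before to 50 bases after the start in the RefSeq annotation of GRCm38.p6, written on the gene's strand. The windows are Lamb3 at chr1:193301993-193302292, forward strand, Ap1m2 at chr9:21312284-21312583, reverse strand, Cldn6 at chr17:23679115-23679414, forward strand, Cldn7 at chr11:69965171-69965470, forward strand and Crb3 at chr17:57061951-57062250, forward strand.
Lamb3: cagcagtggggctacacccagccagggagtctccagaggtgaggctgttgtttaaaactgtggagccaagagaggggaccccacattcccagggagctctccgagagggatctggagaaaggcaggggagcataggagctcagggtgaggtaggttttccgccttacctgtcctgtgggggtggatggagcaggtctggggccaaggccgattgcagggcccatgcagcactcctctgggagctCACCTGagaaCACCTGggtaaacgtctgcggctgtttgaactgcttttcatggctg
Ap1m2: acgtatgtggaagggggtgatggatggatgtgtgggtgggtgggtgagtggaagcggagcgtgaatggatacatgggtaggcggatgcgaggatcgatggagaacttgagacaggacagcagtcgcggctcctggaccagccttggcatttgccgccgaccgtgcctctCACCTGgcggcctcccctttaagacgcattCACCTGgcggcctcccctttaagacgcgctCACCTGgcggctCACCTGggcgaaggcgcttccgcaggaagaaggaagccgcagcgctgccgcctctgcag
Cldn6: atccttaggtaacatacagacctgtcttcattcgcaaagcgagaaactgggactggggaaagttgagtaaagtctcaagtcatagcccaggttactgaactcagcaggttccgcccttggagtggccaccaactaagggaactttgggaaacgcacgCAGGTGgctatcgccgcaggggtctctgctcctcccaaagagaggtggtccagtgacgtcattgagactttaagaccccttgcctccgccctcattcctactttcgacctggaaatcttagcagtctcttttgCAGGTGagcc
Cldn7: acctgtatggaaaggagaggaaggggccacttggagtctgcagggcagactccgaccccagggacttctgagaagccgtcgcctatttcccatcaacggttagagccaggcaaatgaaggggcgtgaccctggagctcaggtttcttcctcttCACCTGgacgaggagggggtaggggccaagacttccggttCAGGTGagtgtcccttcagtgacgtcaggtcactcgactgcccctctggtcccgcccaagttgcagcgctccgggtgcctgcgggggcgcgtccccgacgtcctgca
Crb3: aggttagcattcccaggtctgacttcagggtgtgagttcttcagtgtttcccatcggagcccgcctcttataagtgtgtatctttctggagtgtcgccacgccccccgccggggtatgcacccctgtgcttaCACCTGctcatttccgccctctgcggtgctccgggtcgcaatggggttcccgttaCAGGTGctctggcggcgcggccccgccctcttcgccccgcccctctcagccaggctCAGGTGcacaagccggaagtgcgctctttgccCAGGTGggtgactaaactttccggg

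Of the 28 promoters matched to epithelial genes that rose, 21 (75%) held CACCTG on either strand, against 6640 of all 32851 promoters (20.2%). The 28 promoters belong to 23 of the 43 epithelial genes that rose, and no promoter was matched to the others. Over the whole epithelial list, whatever its members did, it was 25 of 36 promoters (69.4%). The share was 23.2% in the promoters of all genes that rose and 15.8% in those of all genes that fell. The windows shown held 2 matches in Lamb3, 4 in Ap1m2, 2 in Cldn6, 2 in Cldn7 and 4 in Crb3. Other windows held fewer, with 1 match each in those of Dsp, Sfn and Krt8. A match describes the letters and is not a measured binding site.

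Among the adhesion genes, Cdh1 stood at 105 and 98.6 CPM in DuxKO and 428 and 499.8 CPM in Ctbp_DuxTKO and rose by 2.19 (SE 0.10, edgeR adjusted p 2.35e-09). Dsp, which encodes desmoplakin of the desmosome, stood at 11.7 and 10.9 CPM in DuxKO and 105 and 105 CPM in Ctbp_DuxTKO and rose by 3.22 (SE 0.18). Lamb3, the beta chain of laminin-332, rose from 0.136 and 0.166 CPM to 6.55 and 5.98 CPM (5.33, SE 0.39), with the chain gene Lama3 (2.75) and the receptor subunit Itgb4 (1.82). In these genes the libraries of the groups did not overlap, as in 8680 of the 8685 called genes. Of the tight junction genes, Cldn6 rose by 2.52, Cldn4 by 1.90 and Cldn7 by 1.79, and the polarity gene Crb3 rose by 1.76. Cldn7 was not called without DuxKO replicate 1 (1.41, edgeR adjusted p 0.0503) or without Ctbp_DuxTKO replicate 1 (1.29, edgeR adjusted p 0.0608). The keratin genes Krt8 (1.93), Krt18 (1.61) and Krt19 (2.66) rose as well.

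Trim29, a gene of stratified epithelia, had 2 and 0 counts in DuxKO and 75 and 92 in Ctbp_DuxTKO and was at least 31.6-fold higher. Sfn, the 14-3-3 sigma gene, rose from 6.29 and 5.62 CPM to 50.8 and 50.4 CPM (3.09, SE 0.12). The regulators of the epithelial state on the list also rose. Esrp1, an epithelial splicing factor, stood at 2.45 and 2.56 CPM in DuxKO and 30.0 and 24.9 CPM in Ctbp_DuxTKO (3.45, SE 0.15, edgeR adjusted p 1.87e-09), Ovol2 rose by 2.32 and Grhl2 by 1.13. The smallest rise on the list was that of the adhesion molecule gene Epcam, at 29.2 and 30.5 CPM in DuxKO and 38.7 and 38.6 CPM in Ctbp_DuxTKO (0.37, SE 0.11), and with any 1 of the 4 libraries left out it was not called (0.34 to 0.38).

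The genes of CtBP's own partners changed in both directions. Of 33 tested, 13 rose (8 without DuxKO replicate 2) and 9 fell, with a median of 0.29. The recruiting factor gene Klf8 rose from 8.3 and 11.4 CPM to 43.5 and 53.2 CPM (2.30, SE 0.18). Lcor (1.45), Rcor2 (0.89) and Ehmt2 (0.61) rose, as did Hic1 (1.96), whose value was 3.16 without DuxKO replicate 1 and which was not called without DuxKO replicate 2 (1.29, edgeR adjusted p 0.119). In the other direction Zeb2 stood at 6.29 and 5.32 CPM in DuxKO and 2.12 and 2.24 CPM in Ctbp_DuxTKO and fell by 1.41 (SE 0.36, edgeR adjusted p 0.00692). Zeb1 fell by 0.94, Tcf7l2 by 1.28 and the deacetylase gene Hdac2 by 0.38. Kdm1a was not called (0.15, SE 0.10).

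Mesenchymal genes did not move as 1 group, with 6 of 20 tested higher (30%), 5 lower (25%) and a median of 0.37. Of all genes 21.4% were higher and 19.6% lower. Cdh2, the gene of N-cadherin, stood at 41.4 and 42.4 CPM in DuxKO and 9.23 and 12.4 CPM in Ctbp_DuxTKO and fell by 1.95 (SE 0.14, edgeR adjusted p 2.50e-07). The metalloprotease genes Mmp2 and Mmp14 fell by 0.80 and 0.77. Higher were Sparc (2.21), Vim (0.97), Thy1 (3.70) and Snai1, with 20 and 6 counts in DuxKO and 76 and 116 in Ctbp_DuxTKO. Without DuxKO replicate 1 the values were 5.06 for Thy1 and 4.15 for Snai1, and without DuxKO replicate 2 they were 2.98 and 2.38. Of the fibroblast markers, Col3a1 had 6 and 12 counts in DuxKO and 0 and 0 in Ctbp_DuxTKO, and Col1a1 had 5 and 10 counts in DuxKO and 8 and 29 in Ctbp_DuxTKO.

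**Figure D2:**
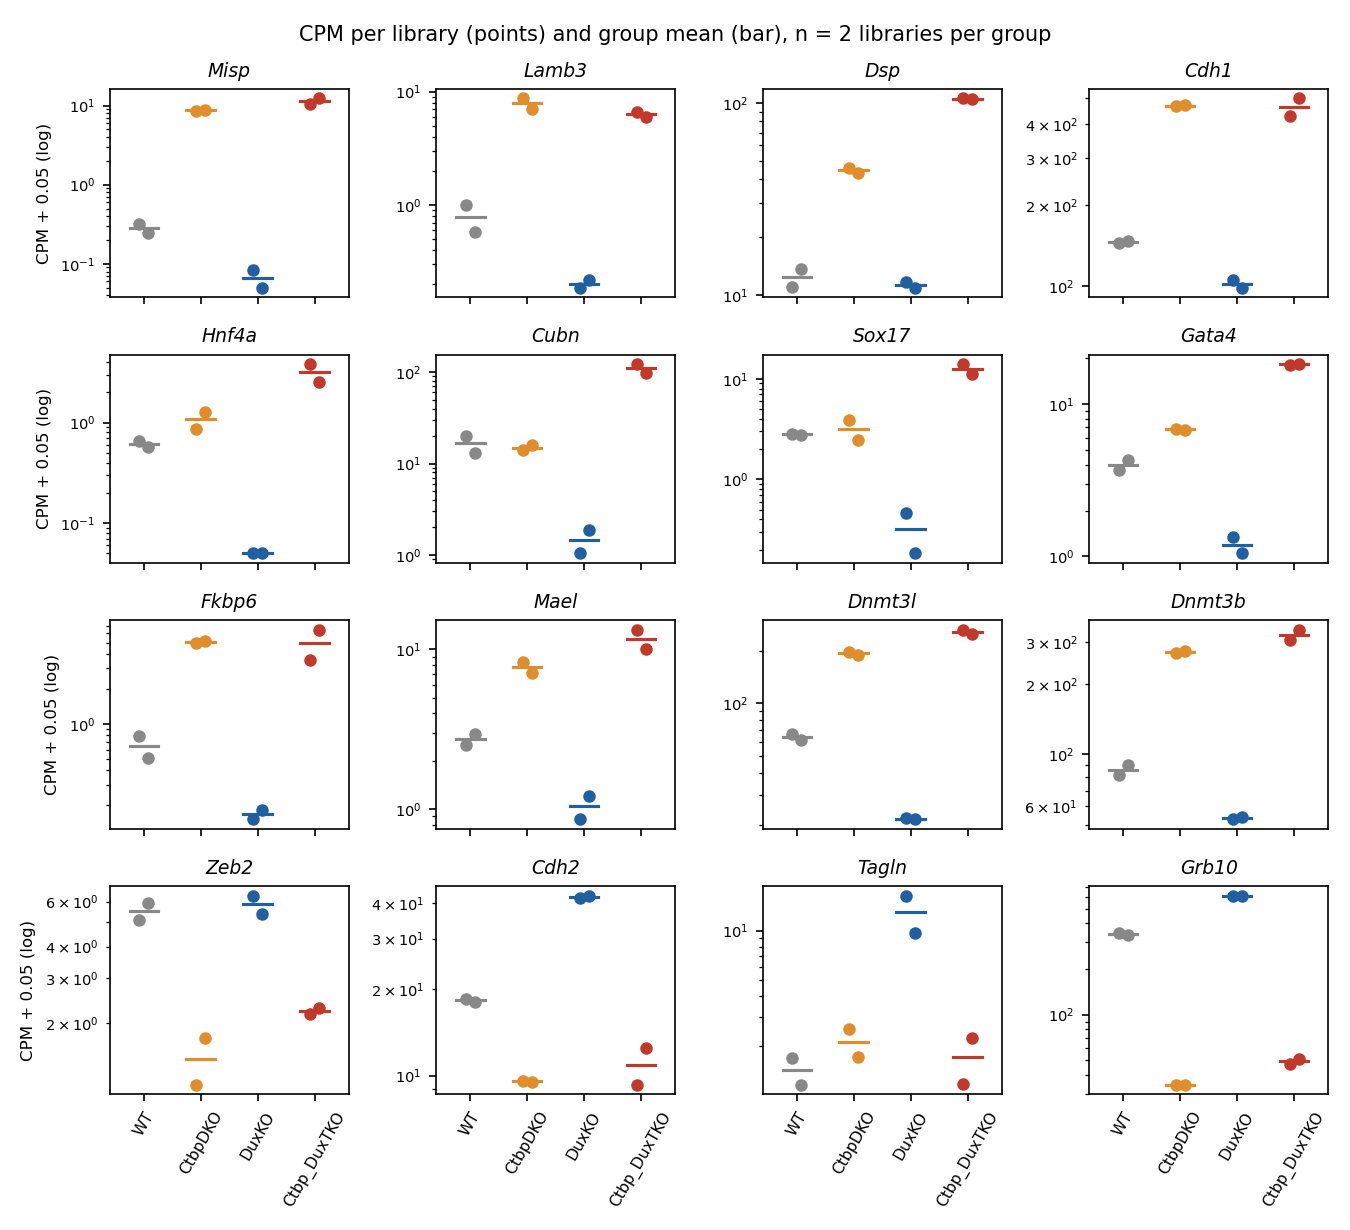
CPM of 16 genes in the 2 libraries of WT, CtbpDKO, DuxKO and Ctbp_DuxTKO, with 0.05 added and on log axes that differ between panels. Points are libraries and bars are group means. In each panel the Ctbp_DuxTKO points lie clear of the DuxKO points, above them for the first 12 genes and below them for Zeb2, Cdh2, Tagln and Grb10.

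Primitive and visceral endoderm genes, which mark the extraembryonic lineage that arises beside the epiblast, had the highest median of the 25 lists. Of 47 genes 39 were tested, 32 rose and 2 fell, with a median of 3.16, or 3.15 with the 5 genes at the floor in DuxKO set to their bounds. Their summed level was 781 and 792 CPM in DuxKO and 2415 and 2325 CPM in Ctbp_DuxTKO. Of the transcription factors, Gata4 stood at 1.29 and 0.997 CPM in DuxKO and 18 and 18.1 CPM in Ctbp_DuxTKO (3.98, SE 0.18, edgeR adjusted p 3.70e-09). Gata6 rose by 3.52 and Sox7 by 3.72, and Sox17 rose from 0.408 and 0.133 CPM to 14 and 11.1 CPM (5.51, SE 0.42). Leaving out 1 DuxKO library moved Sox17 to 6.50 (replicate 1) or 4.90 (replicate 2), and without DuxKO replicate 2 Gata6 was at 4.42 and Sox7 at 4.63. Hnf4a, the nuclear receptor gene of visceral endoderm, had 0 and 0 counts in DuxKO and 87 and 74 in Ctbp_DuxTKO and was at least 31.1-fold higher, and Foxa2 was at least 30.0-fold higher.

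The genes by which visceral endoderm takes up nutrients rose with these factors. Cubn, the gene of the endocytic receptor cubilin, stood at 0.986 and 1.83 CPM in DuxKO and 122 and 99.1 CPM in Ctbp_DuxTKO and rose by 6.29 (SE 0.41, edgeR adjusted p 8.77e-08). Its partner Amn rose by 4.80, the co-receptor Lrp2 by 1.17 and the adaptor Dab2 from 4.22 and 3.62 CPM to 70.1 and 78.9 CPM (4.25). Habp2, a secreted protease gene, had 0 and 0 counts in DuxKO and 88 and 79 in Ctbp_DuxTKO and was at least 32.2-fold higher, and Srgn, a proteoglycan core gene, had 9 and 0 counts in DuxKO and 310 and 295 in Ctbp_DuxTKO. Srgn rose by 6.23, which leaving out DuxKO replicate 1 moved to 11.44 and leaving out DuxKO replicate 2 to 5.22. Of the basement membrane, Col4a1 (3.15), Col4a2 (3.16), Lama1 (2.27) and Lamb1 (1.61) rose. Ttr, the gene of the carrier transthyretin, had 2 and 0 counts in DuxKO and 28 and 29 in Ctbp_DuxTKO, a rise that was not called with any 1 of the 4 libraries left out or by DESeq2. The 2 genes that fell were Apoe (−0.89) and Trf (−1.10), which encode an apolipoprotein and transferrin.

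These levels can be set beside those of WT and CtbpDKO in the same table. Cubn stood at 20.1 and 13 CPM in WT and 14 and 15.8 CPM in CtbpDKO, so that the DuxKO libraries lay below both and the Ctbp_DuxTKO libraries above both. The same order held for Sox17 (2.78 and 2.74 CPM in WT and 3.81 and 2.43 CPM in CtbpDKO), Dab2 (19.4 and 14.8 CPM in WT and 15.5 and 17.9 CPM in CtbpDKO) and Gata4 (3.62 and 4.24 CPM in WT and 6.74 and 6.73 CPM in CtbpDKO). Whether the difference by Ctbp loss was the same with and without Dux was tested per gene, as the log2 fold change of Ctbp_DuxTKO against DuxKO minus that of CtbpDKO against WT. This difference was called for 4124 of 21193 genes (19.5%), 2081 higher (9.82%) and 2043 lower (9.64%). With 1 library left out the count was 2638 (without DuxKO replicate 1) to 3710 (without Ctbp_DuxTKO replicate 2). In the endoderm list it was called higher for 24 of 39 genes and lower for 1. For Cubn it was 6.44 (SE 0.51, edgeR adjusted p 4.54e-06), since Ctbp loss with Dux intact gave −0.15. For Dab2 the difference was 4.29, for Sox17 5.34, for Gata4 3.20 and for Lama1 2.42. Without DuxKO replicate 1 or 2 that of Sox17 was 6.33 or 4.75. The median of the list was 3.16 without Dux and 0.46 with Dux.

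In the epithelial list the difference was called higher for 19 of 54 genes and lower for 5, against 9.82% and 9.64% of all genes. The medians were 1.83 without Dux and 0.98 with Dux. Cdh1 rose by 2.19 without and 1.69 with Dux, a difference of 0.50 (edgeR adjusted p 0.0152). The difference was larger for Esrp1 (2.37), Cldn6 (2.57) and Grhl2 (2.17, since Grhl2 fell in CtbpDKO, with −1.04). For Krt8 it was −0.73 and for Krt18 −0.62, so that these keratin genes rose less without Dux. The differences of Cdh1, Krt8 and Krt18 each lost their call in 3 of 8 fits with 1 library left out. Krt8 stood at 19.8 and 16 CPM in WT and 117 and 109 CPM in CtbpDKO, against 31.1 and 27.9 CPM in DuxKO and 113 and 111 CPM in Ctbp_DuxTKO, so that WT lay below DuxKO while CtbpDKO and Ctbp_DuxTKO overlapped.

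**Figure D3:**
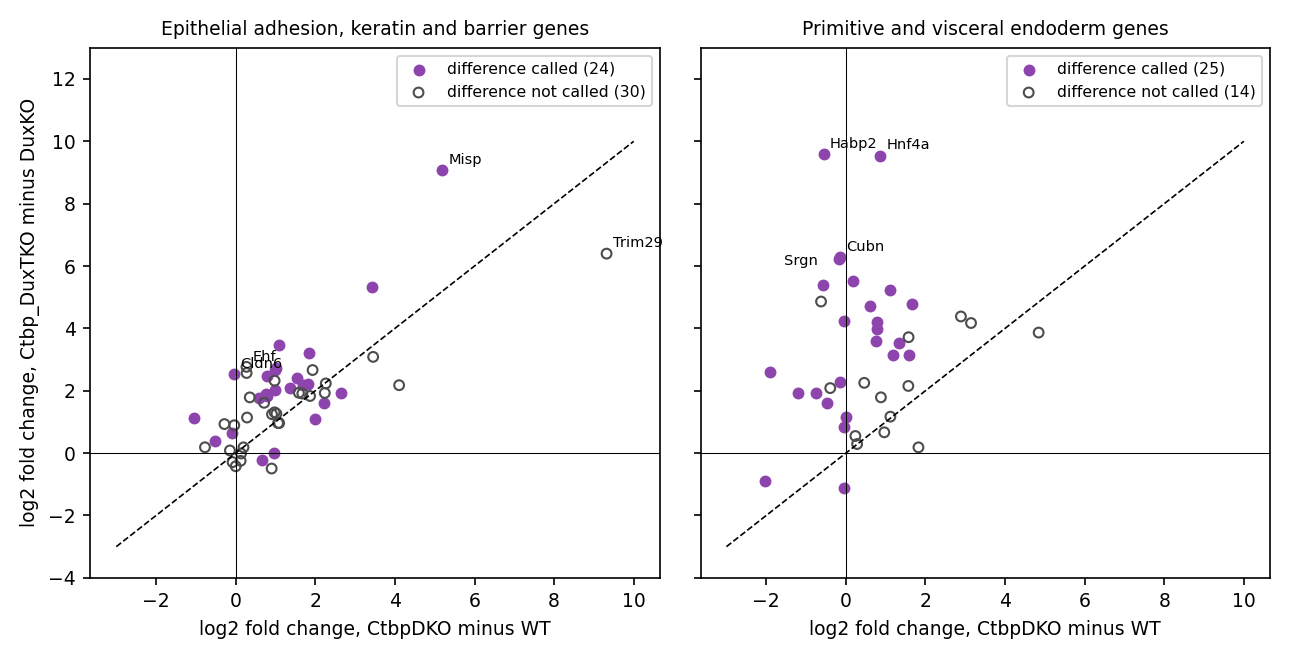
Log2 fold change by Ctbp loss without Dux (vertical axis, Ctbp_DuxTKO minus DuxKO) against that with Dux (horizontal axis, CtbpDKO minus WT) for the tested genes of the epithelial list (left, 54 genes) and the endoderm list (right, 39 genes). Filled points are genes whose difference was called (24 and 25 genes), the dashed line marks equal change, and most endoderm points lie well above it. Points with 0 counts in DuxKO, such as Habp2 and Hnf4a, depend on the prior count.

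Among all called genes whose higher group averaged 100 counts or more, the largest difference was of Cplx2, which encodes a complexin of synaptic vesicle release. Cplx2 had 33 and 15 counts in DuxKO and 549 and 1732 in Ctbp_DuxTKO, where WT had 14 and 14 and CtbpDKO 0 and 5, and the difference was 8.27 (SE 2.00, edgeR adjusted p 0.0113). That difference was not called without WT replicate 1 or without WT replicate 2. The Ctbp_DuxTKO libraries differed from each other, and the rise over DuxKO was 5.67, 4.85 without Ctbp_DuxTKO replicate 2 and 6.36 without DuxKO replicate 1. Chac1 and Trib3, targets of the integrated stress response, were lower in Ctbp_DuxTKO than in DuxKO but rose with Dux (2.17 and 1.40), with differences of −3.18 and −2.40 (edgeR adjusted p 5.58e-06 and 4.56e-06). Chac1 stood at 38.1 and 38.4 CPM in DuxKO and 17.7 and 20.4 CPM in Ctbp_DuxTKO, against 5.9 and 9.42 CPM in WT and 38.1 and 31.2 CPM in CtbpDKO. Fabp5, a fatty acid binding protein gene, had a difference of −2.38.

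Genes of the germline, meiosis and the piRNA pathway rose in 23 of 42 tested cases and fell in 7 (4 without Ctbp_DuxTKO replicate 1), with a median of 1.16. Of all genes 21.4% rose and 19.6% fell. Many germline genes are silenced by the variant Polycomb complex with Mga, Max and E2f6, which binds the E-box CACGTG, and by methylation of their promoters. The letters CACGTG, which are the same on both strands and do not overlap CACCTG, were in 13 of 25 promoters of germline genes that rose (52%). They were in 21 of 51 promoters of the list (41.2%) and in 7.15% of all promoters. The share was 8.43% in the promoters of all genes that rose and 10.5% in those of all genes that fell. The promoters of 3 genes of the piRNA pathway that rose are shown with those letters in capitals. In DuxKO Tdrd9 had 0 and 0 counts, Fkbp6 3 and 4 and Mael 24 and 35. The windows are Tdrd9 at chr12:111971309-111971608, forward strand, Fkbp6 at chr5:135349995-135350294, reverse strand and Mael at chr1:166238695-166238994, reverse strand.
Tdrd9: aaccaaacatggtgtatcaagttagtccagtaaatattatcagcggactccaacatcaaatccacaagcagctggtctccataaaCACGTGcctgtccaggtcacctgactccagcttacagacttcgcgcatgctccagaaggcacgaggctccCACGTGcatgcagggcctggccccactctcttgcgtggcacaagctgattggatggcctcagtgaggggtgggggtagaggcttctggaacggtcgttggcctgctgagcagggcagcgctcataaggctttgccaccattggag
Fkbp6: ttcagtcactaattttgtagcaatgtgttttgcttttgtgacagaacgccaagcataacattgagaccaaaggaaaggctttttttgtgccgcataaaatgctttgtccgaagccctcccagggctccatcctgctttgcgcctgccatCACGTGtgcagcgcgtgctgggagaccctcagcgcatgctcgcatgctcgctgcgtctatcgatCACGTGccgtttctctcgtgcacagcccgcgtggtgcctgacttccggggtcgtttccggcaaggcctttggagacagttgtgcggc
Mael: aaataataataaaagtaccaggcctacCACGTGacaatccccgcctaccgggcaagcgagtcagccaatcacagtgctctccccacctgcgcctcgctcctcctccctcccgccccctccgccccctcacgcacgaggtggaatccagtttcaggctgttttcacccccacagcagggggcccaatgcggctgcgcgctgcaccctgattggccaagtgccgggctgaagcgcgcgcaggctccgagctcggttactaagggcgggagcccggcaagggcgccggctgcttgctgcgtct

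The search found 2 matches each in Tdrd9 and Fkbp6 and 1 in Mael. Tdrd9 had 0 and 0 counts in DuxKO and 18 and 29 in Ctbp_DuxTKO and was at least 8.75-fold higher. Fkbp6, a co-chaperone gene of piRNA loading, had 3 and 4 counts in DuxKO and 80 and 188 in Ctbp_DuxTKO and rose by 5.35 (SE 0.49, edgeR adjusted p 3.47e-06). Mael stood at 0.816 and 1.16 CPM in DuxKO and 13.2 and 10.0 CPM in Ctbp_DuxTKO (3.54, SE 0.25), and the meiotic cohesin gene Smc1b at 0.816 and 0.898 CPM in DuxKO and 12.5 and 13.5 CPM in Ctbp_DuxTKO (3.92, SE 0.26). In Fkbp6, Mael and Smc1b both Ctbp_DuxTKO libraries lay above both DuxKO libraries, which the rule for naming them required. Stra8, which licenses meiosis, rose by 2.44, Hormad1 by 2.27 and Tex19.1 by 1.79. Lower were the meiotic genes Stag3 (−0.83), Rec8 (−1.48) and Sycp3 (−0.99). Rec8 was not called without DuxKO replicate 2 (−1.15) or without Ctbp_DuxTKO replicate 1 (−1.37). Sycp3 was called in 1 of the 4 fits with a library left out, its values there running from −1.20 to −0.78.

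Genes that write and remove DNA methylation rose in 12 of 22 cases (54.5%) and fell in 4 (18.2%), against 21.4% and 19.6% of all genes. By size the rises were led by Dnmt3l (3.55), Gadd45g (3.38, or 4.30 without DuxKO replicate 2) and Apobec2 (3.19), followed by the de novo methyltransferase genes Dnmt3b and Dnmt3c. Dnmt3b stood at 53 and 53.8 CPM in DuxKO and 308 and 339.6 CPM in Ctbp_DuxTKO and rose by 2.60 (SE 0.10, edgeR adjusted p 5.13e-10), Dnmt3c rose by 2.60 and Dnmt3a by 0.85. Dnmt3l, their catalytically inactive cofactor, stood at 22 and 21.7 CPM in DuxKO and 264 and 249 CPM in Ctbp_DuxTKO. Its rise without Dux was 3.55 and with Dux 1.60, a difference of 1.96 (SE 0.12, edgeR adjusted p 5.43e-07). Its levels were 66.5 and 61.6 CPM in WT and 197 and 190.4 CPM in CtbpDKO, so that DuxKO lay below WT and the 2 groups without Ctbp lay closer together. The dioxygenase gene Tet1 stood at 244 and 249 CPM in DuxKO and 556 and 551 CPM in Ctbp_DuxTKO (1.17, SE 0.14), and Tet2 rose by 0.61. The maintenance methyltransferase gene Dnmt1 was not called (−0.17, SE 0.09).

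Genes of the 2-cell stage mostly stayed at the floor. Of 47 listed, 34 passed the filter on low counts. In all, 8 of the 34 rose (23.5%, close to the 21.4% of all genes), 0 fell, and 19 were at or under 3 counts in all 4 libraries. The count of genes that rose was 2 where at least 50 counts in the higher group were asked for, and 5 without Ctbp_DuxTKO replicate 2 or by DESeq2. The difference between the Ctbp effects without and with Dux was called in 3 of the 34 as lower and in 1 as higher (9.64% and 9.82% of all genes). The 19 genes at the floor had almost no counts in either group without Dux, so this test could hardly call them. These counts of calls therefore do not show whether the Ctbp effect on those genes depended on Dux. For Zscan4c and Usp17le, given below, the counts of CtbpDKO were absent or nearly absent in Ctbp_DuxTKO. Those 19 passed the filter through counts in other libraries of the fit, such as CtbpDKO, so no count of the list is given for CtbpDKO against WT. Zscan4c had 0 and 0 counts in DuxKO and 3 and 0 in Ctbp_DuxTKO, against 323 and 476 in CtbpDKO, and Usp17le had 0 and 0 counts in DuxKO and 0 and 0 in Ctbp_DuxTKO, against 219 and 235. The members that rose were of the Pramel and Sprr2a families, whose copies are near-identical and whose counts are uncertain, with Zscan5b, Gm5662 and Zfp809. Pramel6 had 0 and 0 counts in DuxKO and 27 and 42 in Ctbp_DuxTKO and was at least 12.9-fold higher, and Pramel7 had 0 and 0 counts in DuxKO and 30 and 42 in Ctbp_DuxTKO. Zfp809, a zinc finger gene that silences retroviruses, stood at 6.5 and 5.95 CPM in DuxKO and 15 and 11.7 CPM in Ctbp_DuxTKO (1.10, SE 0.15). Among activators and repressors of the 2-cell state, 10 of 28 rose (6 without DuxKO replicate 2) and 6 fell. Dppa2, an activator, stood at 47.3 and 44 CPM in DuxKO and 84.4 and 95.4 CPM in Ctbp_DuxTKO (0.98, SE 0.10), and Mga (0.86), Zscan10 (0.85) and Setdb1 (0.43) rose, while Dppa3 fell by 1.89.

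Pluripotency genes changed in both directions. Of the naive genes 6 of 20 rose (30%) and 3 fell (15%), against 21.4% and 19.6% of all genes, with a median of 0.08. Fgf4, the growth factor that primes cells for differentiation, stood at 65 and 59.5 CPM in DuxKO and 134 and 142 CPM in Ctbp_DuxTKO (1.15, SE 0.09), Tbx3 rose by 0.93, and Esrrb fell by 0.52. Klf4 was not called (−0.06, SE 0.11). Of the core and formative genes 9 of 22 rose (40.9%) and 5 fell (22.7%). Sox3 (1.95), Zic2 (0.89) and Otx2 (0.80) rose, and their differences from the effect with Dux were 2.08, 2.12 and 1.31. In this list the difference was called higher for 12 of 22 genes and lower for 3, against 9.82% and 9.64% of all genes. Tcf15 (−1.58) and Sox11 (−1.14) fell.

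Other lineage genes rose more often than they fell, as did genes of low level in general. Of the 5299 genes with the lowest level 21.2% rose and 2.66% fell. Of the 5298 genes next in level 23.6% rose and 13.6% fell. The lists were not matched by level, so more rises than falls is not by itself particular to lineage genes. Of the trophoblast genes 15 of 28 rose and 5 fell (3 without DuxKO replicate 1). The galectin gene Lgals3 had 81 and 108 counts in DuxKO and 2307 and 3204 in Ctbp_DuxTKO (5.04, SE 0.14, edgeR adjusted p 6.82e-11), Ly6a rose by 4.20 and Esx1 by 3.53 (4.23 without DuxKO replicate 1). The defining factor Cdx2 had 76 and 61 counts in DuxKO and 23 and 10 in Ctbp_DuxTKO, a fall of 1.82. It was 2.75 without Ctbp_DuxTKO replicate 1, and it was not called without DuxKO replicate 1 (−1.64) or without Ctbp_DuxTKO replicate 2 (−1.23). Elf5 had 0 and 0 counts in DuxKO and 2 and 1 in Ctbp_DuxTKO and Gata3 was not called (−0.18). The trophoblast markers Eomes and Hand1 were called higher. Eomes stood at 7.04 and 6.28 CPM in DuxKO and 10.9 and 15.1 CPM in Ctbp_DuxTKO (0.97). Hand1 had 6 and 9 counts in DuxKO and 33 and 69 in Ctbp_DuxTKO (2.89). Its values were 2.46 to 3.19 when a library was left out, and it was not called without DuxKO replicate 1. Of the primitive streak and mesoderm genes 11 of 22 rose (6 without DuxKO replicate 1), 4 of which (Gata4, Pdgfra, Eomes and Hand1) are also on the endoderm or trophoblast lists. The homeobox gene Evx1 rose from 0.374 and 0.0665 CPM to 5.38 and 5.84 CPM. Without DuxKO replicate 1 or 2 the value of Evx1 was 6.31 or 3.87, where 4.65 was fitted with both. The mesoderm markers T (32 and 18 counts in DuxKO and 10 and 8 in Ctbp_DuxTKO), Mixl1 (9 and 2 counts in DuxKO and 2 and 2 in Ctbp_DuxTKO) and Mesp1 (6 and 0 counts in DuxKO and 0 and 0 in Ctbp_DuxTKO) were low in all 4 libraries.

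Neural genes rose in 7 of 23 cases (30.4%) and fell in 1 (4.35%), against 21.4% and 19.6% of all genes. Of the 5299 genes with the lowest level 21.2% rose and 2.66% fell. Whether the neural shares differ from those of genes of the same level was not tested. Sox1, the earliest neural transcription factor gene, stood at 47.3 and 45.8 CPM in DuxKO and 6.72 and 8.56 CPM in Ctbp_DuxTKO and fell by 2.60 (SE 0.12, edgeR adjusted p 3.95e-09). It fell with Dux intact too (−2.40), and the difference was not called (−0.20, edgeR adjusted p 0.425). Insm1 (3.52) and the neurofilament genes Nefl (1.42) and Nefm (1.54) rose. Of 33 synaptic vesicle and exocytosis genes 8 rose and 6 fell, shares close to those of all genes, and the count of those that rose was 3 without DuxKO replicate 1, 4 without DuxKO replicate 2 and 5 without Ctbp_DuxTKO replicate 1. Syt2 had 0 and 0 counts in DuxKO and 72 and 99 in Ctbp_DuxTKO and was at least 32.1-fold higher, and Syt11 fell by 1.99. Hox genes rose in 9 of 29 cases (31%) and fell in 5 (17.2%). Those that rose were Hoxa11, Hoxa13 and 7 Hoxd genes, with Hoxd13 at 1.46 and 1.13 CPM in DuxKO and 8.54 and 7.78 CPM in Ctbp_DuxTKO (2.65, SE 0.22). Among those that fell were Hoxc8, Hoxc9 and Hoxc10. Where at least 50 counts in the higher group were asked for, 3 Hox genes rose and 2 fell. Without DuxKO replicate 1 or without Ctbp_DuxTKO replicate 1 the counts were 5 and 2, and without Ctbp_DuxTKO replicate 2 the count of those that fell was 2.

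Signalling genes changed in both directions. Of 43 Wnt pathway genes 15 rose (34.9%) and 12 fell (27.9%), against 21.4% and 19.6% of all genes. Inhibitors and targets of the pathway were among both. Axin2 stood at 3.33 and 3.39 CPM in DuxKO and 12.3 and 13.3 CPM in Ctbp_DuxTKO (1.93, SE 0.19), Notum rose by 1.11, Dkk1 by 4.71 and the receptor gene Lgr6 by 5.18, while the inhibitor Nkd2 fell by 1.48, the target Ccnd1 by 0.46 and the factor gene Tcf7l2 by 1.28. Lef1 rose by 1.54 without Dux and stood lower in CtbpDKO than in WT (−2.12), a difference of 3.67 (edgeR adjusted p 7.77e-06). Fzd2 (−1.63), Sfrp1 (−1.36), Sfrp2 (−1.40) and Wls (−1.40), which is needed for Wnt secretion, fell. Of 33 Nodal and Bmp genes 9 rose and 9 fell (27.3% each), with a median of −0.06. Bmp4 (2.40), Nodal (1.06), its co-receptor gene Tdgf1 (1.24) and its inhibitor Lefty2 (0.95) rose, whereas the Bmp targets Id2 (−2.16), Id1 (−0.77), Id3 (−0.71) and Bambi (−1.04) fell. Id2 stood at 26.3 and 26.8 CPM in DuxKO and 5.98 and 5.87 CPM in Ctbp_DuxTKO.

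Of 27 genes of p53 and its targets 15 rose (55.6%) and 1, Trp53 itself (−0.45), fell (3.7%). Of all genes 21.4% rose and 19.6% fell. Trp53 was not called without Ctbp_DuxTKO replicate 1 (−0.28). Btg2 (1.44), Ei24 (1.16), Ccng1 (1.02) and Mdm2 (0.37) rose, and Cdkn1a was not called (−0.18, SE 0.27). Interferon response and antigen presentation genes rose in 13 of 30 cases (43.3%) and fell in 6 (20%). Ifi35 was at least 32-fold higher, and the RNA sensor gene Ddx58 stood at 3.09 and 2.59 CPM in DuxKO and 9.41 and 12.1 CPM in Ctbp_DuxTKO (1.92, SE 0.18). Ifitm3, of the restriction factor family whose members Ifitm1 and Ifitm2 fell as well, had 1764 and 1711 counts in DuxKO and 401 and 577 in Ctbp_DuxTKO and fell by 1.66.

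Imprinted genes rose in 15 of 40 cases (37.5%) and fell in 11 (27.5%), against 21.4% and 19.6% of all genes. H19, a maternally expressed non-coding RNA, had 6 and 4 counts in DuxKO and 595 and 742 in Ctbp_DuxTKO (7.21, SE 0.33, edgeR adjusted p 3.29e-09), while Igf2 beside it in the same domain fell from 18.5 and 17.8 CPM to 5.64 and 6.86 CPM (−1.53, SE 0.15). In the groups with Dux, H19 had 4 and 1 counts in WT and 540 and 375 in CtbpDKO. Cdkn1c and Phlda2, maternally expressed growth inhibitors of the Kcnq1 domain, stood at 3.84 and 3.72 CPM in DuxKO and 29.4 and 30.2 CPM in Ctbp_DuxTKO and at 0.68 and 0.665 CPM in DuxKO and 12.3 and 10.2 CPM in Ctbp_DuxTKO. Their rises were 2.97 and 4.06 without Dux and their values with Dux −1.57 and 0.62, differences of 4.54 and 3.44 (edgeR adjusted p 3.54e-08 and 6.47e-06). Rian, of the Dlk1 domain, fell by 0.95.

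Smooth muscle and Srf target genes rose in 6 of 28 cases and fell in 7, close to the shares of all genes. Those that fell were Acta2, Tagln, Cnn2, Tpm1, Tpm2, Flna and the coactivator gene Mrtfa (−0.60). Its paralog Mrtfb (0.40), Actb (0.27), Ccn1 (0.71), Tagln2 (1.81), Fos (1.88, or 2.58 without DuxKO replicate 1) and Myh9 rose. The rises of Mrtfb (0.17) and Actb (0.12) were not called without Ctbp_DuxTKO replicate 2 or without DuxKO replicate 2, with the values in parentheses from the first of these, and that of Actb was also not called without DuxKO replicate 1. Tagln stood at 16.3 and 9.67 CPM in DuxKO and 1.13 and 2.17 CPM in Ctbp_DuxTKO and fell by 2.95 (SE 0.34), or by 3.55 without Ctbp_DuxTKO replicate 2. Acta2 had 43 and 37 counts in DuxKO and 1 and 0 in Ctbp_DuxTKO and was at least 11.6-fold lower, which was not called without Ctbp_DuxTKO replicate 2 (edgeR adjusted p 0.0538). Cnn2 fell by 2.13 and Tpm1 by 1.32. In WT and CtbpDKO Tagln stood at 1.64 and 1.11 and 2.47 and 1.65 CPM, so that the DuxKO libraries were the high ones, and the difference was −3.53 (SE 0.50, edgeR adjusted p 3.50e-04). Myh9, the non-muscle myosin heavy chain, rose from 36.4 and 41.6 CPM to 268 and 272 CPM (2.79, SE 0.10).

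Most histone genes fell, by little, whereas most respiratory chain genes were not called. Of 65 replication-dependent histone genes, whose copies are similar and whose transcripts lack poly(A) tails, 54 fell and 1 rose, with a median of −0.47, and between 48 and 52 fell under the other scalings and DESeq2. Their summed level was 71693 and 69719 CPM in DuxKO, 50986 and 48507 CPM in Ctbp_DuxTKO, 52228 and 54212 CPM in WT, and 53242 and 50505 CPM in CtbpDKO, so that DuxKO stood above the other 3 groups. The linker histone genes H1f4 (−1.43) and H1f5 (−1.30) also fell. Of 80 nuclear genes of oxidative phosphorylation 35 fell, 1 rose and 44 were not called, with a median of −0.28. Of the 5298 genes with the highest level, 34.3% fell. Leaving out DuxKO replicate 1 lowered the count of falling genes in this list from 35 to 21, the lowest with 1 library left out, and under the other scalings it was 33. The mitochondrial genes mt-Nd1 (1.27), mt-Nd2 (1.24) and mt-Nd4 (1.39) were called higher, but DuxKO replicate 1 stood apart, with mt-Nd1 at 634 and 1708 CPM in DuxKO and 2666 and 2971 CPM in Ctbp_DuxTKO. Without it the values were 0.72, 0.70 and 0.86, and without DuxKO replicate 2 they were 2.13, 2.07 and 2.19.

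Glycolysis and pyruvate genes fell in 15 of 36 cases (41.7%) and rose in 7 (19.4%), against 19.6% and 21.4% of all genes. The glucose transporter gene Slc2a3 stood at 645 and 654 CPM in DuxKO and 289 and 262 CPM in Ctbp_DuxTKO and fell by 1.24 (SE 0.08, edgeR adjusted p 1.09e-07), Slc2a1 fell by 0.81, Pdk1 by 0.58 and Hk2 by 0.42, and Ldha was not called (0.03, SE 0.09). Higher were Pfkp (1.43) and the fructose bisphosphatase genes Fbp2, at 0.68 and 0.532 CPM in DuxKO and 11.7 and 10.7 CPM in Ctbp_DuxTKO, and Fbp1, at least 14.9-fold higher. Of 35 ribosome biogenesis genes 5 rose and 5 fell, lower shares than over all genes, and with 1 library left out between 2 and 3 rose. Pabpc1, the poly(A)-binding protein gene, had 8561 and 9409 counts in DuxKO and 24632 and 9881 in Ctbp_DuxTKO. Its rise of 1.22 rested on Ctbp_DuxTKO replicate 1, without which it was 0.15 (edgeR adjusted p 0.756).

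**Figure D4:**
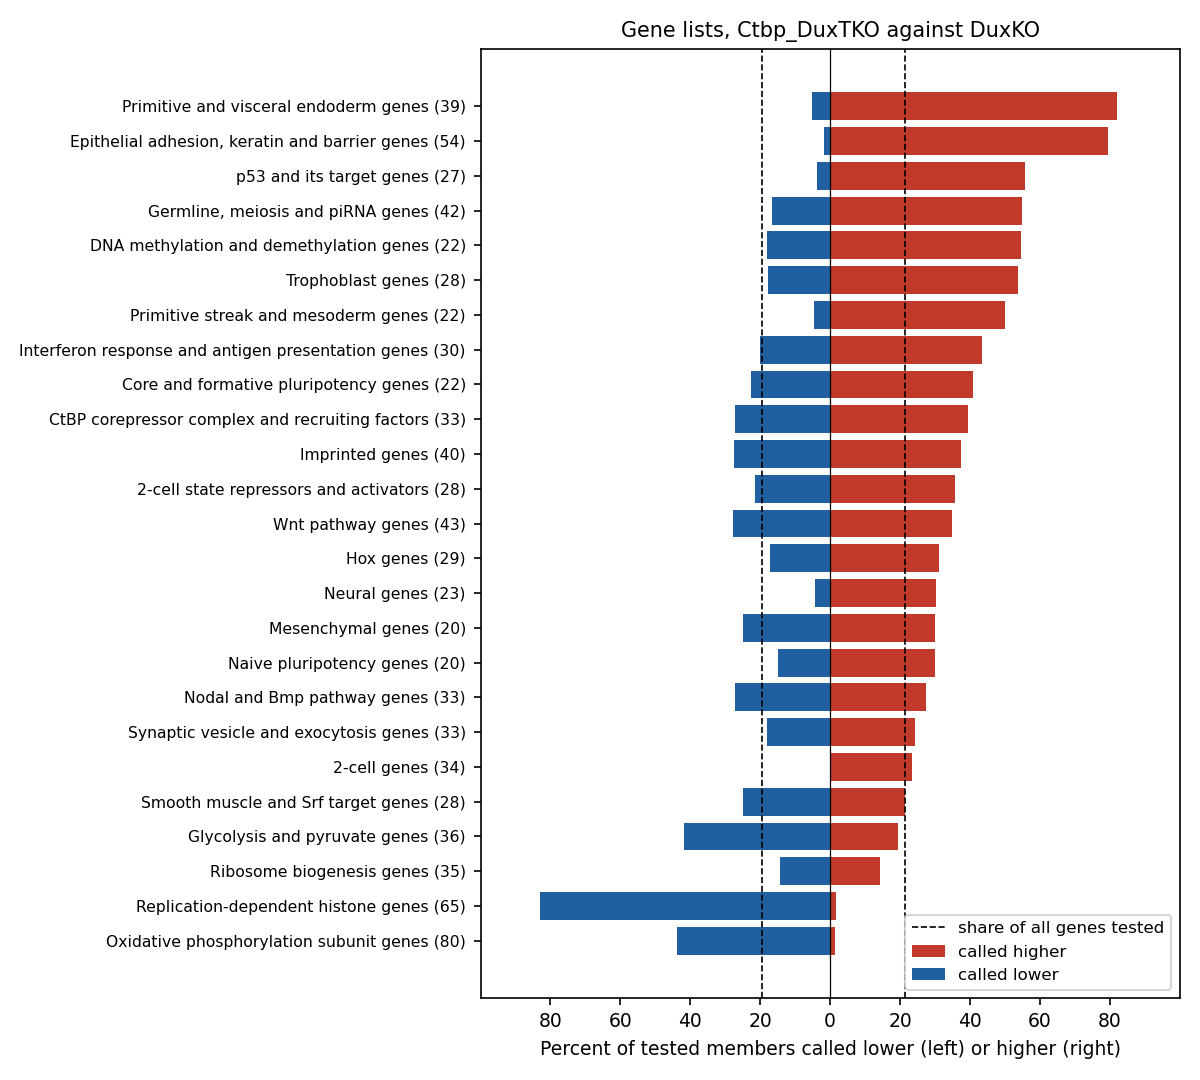
Percent of the tested members of each of the 25 gene lists that were called higher (right, red) or lower (left, blue) in Ctbp_DuxTKO against DuxKO, with the number tested in parentheses. Dashed lines mark the shares of all genes tested, 21.4% higher and 19.6% lower. The endoderm and epithelial lists reach furthest to the right and the histone list furthest to the left.

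A second measurement of the same genes came from the time course, which shares no library with the comparison above. In it Ctbp2 had 1184 and 1328 counts in CtbpDKO_Dox cells at day 0 and 11119 and 11231 at day 3, a rise of 3.24 on the log2 scale (edgeR adjusted p 2.39e-09). Of 20612 genes tested there, 1029 (4.99%) were called between day 3 and day 0, 496 higher (2.41%) and 533 lower (2.59%). Of the 19978 genes tested in both tables, 529 were lower at day 3, and 383 of them (72.4%) were higher in Ctbp_DuxTKO than in DuxKO, where 21.4% of all these genes were. They make 8.95% of the 4281 genes higher in Ctbp_DuxTKO. A further 38 of the 529 genes (7.18%) were lower in Ctbp_DuxTKO. Of the 493 genes higher at day 3, 208 (42.2%) were lower in Ctbp_DuxTKO, against 20.6% of all, and 76 (15.4%) were higher. The 208 genes make 5.05% of the 4120 genes lower in Ctbp_DuxTKO. With 1 of the 4 libraries of this time course comparison left out, between 340 and 607 genes were called, and the shared counts were 251 and 63 without day 0 replicate 1, 210 and 131 without day 0 replicate 2, 155 and 55 without day 3 replicate 1, and 181 and 97 without day 3 replicate 2, in place of 383 and 208.

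The epithelial and the endoderm list differed at day 3. Of 53 epithelial genes tested there, 20 fell and 1, Cdh3 (2.58), rose. Misp stood at 7.02 and 8.04 CPM at day 0 and 1.96 and 1.68 CPM at day 3 (−2.05, edgeR adjusted p 8.19e-04), Esrp1 fell by 1.20, Krt8 by 1.19, Sfn by 1.25 and Trim29 by 4.24. Cdh1 was not called at day 3 (−0.30, edgeR adjusted p 0.181), nor was Lamb3 (−0.72, edgeR adjusted p 0.115). Zeb2, lower in Ctbp_DuxTKO, rose by 2.27 at day 3. Of 37 endoderm genes tested, 2 fell and 3 rose. Cubn stood at 3.04 and 4.78 CPM at day 0 and 3.67 and 5.4 CPM at day 3 (0.21, edgeR adjusted p 0.737), and Lama1 and Lrp2, higher in Ctbp_DuxTKO, were also higher at day 3 (0.65 and 1.30). The cells of the time course carry the label CtbpDKO and no Dux knockout, so the 2 measurements differ in genotype as well.

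**Figure D5:**
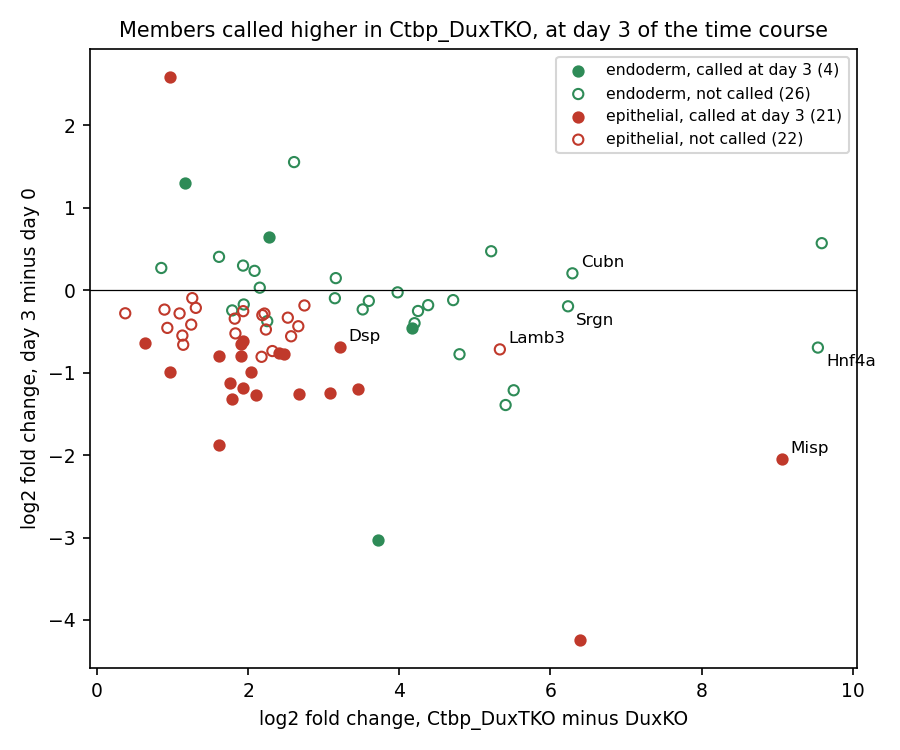
Log2 fold change at day 3 against day 0 of the time course (vertical axis) against that of Ctbp_DuxTKO minus DuxKO (horizontal axis) for members of the epithelial list (red, 43 genes) and of the endoderm list (green, 30 genes) called higher in Ctbp_DuxTKO and tested in both tables. Filled points were called at day 3. Most red points lie below 0, with 20 genes called lower and 1 called higher, while the green points lie on both sides of 0, with 2 called lower and 2 higher.

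The endoderm and epithelial lists were also read in a table of other libraries, of cells that overexpress Pramel7, a gene of the preimplantation embryo whose copies are similar. The groups are P7OE (in WT cells) and DuxKO_P7OE (in DuxKO cells), with WT and DuxKO libraries of their own. This table was normalized separately, so its levels are not set against those of Ctbp_DuxTKO. Pramel7 itself had 0 and 0 counts in DuxKO and 537 and 588 in DuxKO_P7OE. Between DuxKO_P7OE and DuxKO 21.4% of 20161 genes were called, 11.6% higher and 9.83% lower, and of the 37 endoderm genes tested 26 were higher. Between P7OE and WT 19.9% were called, 11% higher and 8.9% lower, and of the endoderm genes 25 were higher and 4 lower. Cubn had 32 and 60 counts in DuxKO and 633 and 630 in DuxKO_P7OE (log2 fold change 4.90, edgeR adjusted p 6.27e-05). Gata4 had 20 and 30 and 85 and 78 counts in these groups (2.80) and Dab2 86 and 106 and 455 and 372 (3.18). In each of the 3 genes both DuxKO_P7OE libraries lay above both DuxKO libraries.

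Of the epithelial list 52 genes were tested in that table. In DuxKO_P7OE 19 were higher and 3 lower than in DuxKO, while in P7OE 5 were higher and 25 lower than in WT. Its DuxKO libraries had 2 of these genes higher and 36 lower than its WT libraries, where 16.7% of all genes were called, 7.76% higher and 8.91% lower. Cdh1 had a log2 fold change of −2.19 between them (edgeR adjusted p 9.92e-06). Of the 37 endoderm genes, 4 were higher and 5 lower between the same DuxKO and WT libraries. For the table that holds Ctbp_DuxTKO, only summed levels of DuxKO and WT are given here, a measure unlike counts of calls. Its summed epithelial level was 967 and 946 CPM in DuxKO and 1022 and 1074 CPM in WT. Its summed endoderm level was 781 and 792 CPM in DuxKO and 1137 and 1124 CPM in WT.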

How the data were processed

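The RNA-seq libraries are total RNA of E14tg2a cells, and the 4 libraries of the comparison are in a table of raw counts per gene that the authors deposited, with no normalization. Per the submitters' processing notes the tools of the series include Trim Galore, HISAT2, featureCounts and Bismark and the genome build is mm10. Versions and the strand setting of counting are not given in the sources used here, so overlapping and antisense genes cannot be told apart, and counts of near-identical copies (Pramel, Sprr2a, Zscan4, Usp17l and histone genes) are uncertain. The bisulfite libraries were not analysed here. Per the labels the kit was stranded.

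In R 4.3.3 the 12 libraries of the genotype table were fitted together with edgeR 4.0.16 (quasi-likelihood test, TMM factors, filterByExpr, prior count 0.125), which kept 21193 of 55276 genes. Genes with a Benjamini-Hochberg adjusted p under 0.05 over all genes tested are called. The CtBP difference with and without Dux is an interaction contrast in the same fit. The time course (10 libraries, 20612 genes) and the Pramel7 table (12 libraries, 20161 genes) were fitted separately, and the fit of the Pramel7 table was chosen after seeing the data. SE is an approximate standard error, the absolute log2 fold change divided by the square root of the F statistic of its test. Where a group had almost no counts it depends on the prior count, as the fold change does. A fold against a group with at most 3 counts in each library is given as a bound computed against 3 counts per library. Chromosomes and gene classes came from the RefSeq table of GRCm38.p6, which matched 18245 genes tested. In all, 26 symbols in the table are dates, and 0 columns were unmatched to samples.

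The comparison and the gene lists were chosen with earlier results of these data known. Some list symbols were updated to those of the table (Mrtfa, Mrtfb, Ccn1, Ccn2 and histone symbols). Genes were named by a rule: the targeted genes, Dppa2, Pramel7 and Dnmt3l, the 12 largest changes per direction among called genes without overlap whose higher group averaged 100 counts or more, the 6 most abundant called genes per direction of at least 1 on the log2 scale, the 3 largest per list and direction with at least 50 counts, and the 6 largest differences per direction. Other genes are named for a known role and were chosen after their values were seen. Alternatives were upper quartile and RLE factors, other filters on low counts, a prior count of 2, DESeq2 1.42.0, a fit of the groups compared alone, a replicate block, a minimum of 1 on the log2 scale, leaving out structural RNA or chromosomes off the median, and leaving out each library. The fits were tested on simulated data. A few genes are not reported here. No set test was run, and lists are given by counts and medians. Counts and intervals cover counting error and the spread between libraries only.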

Additional observations from a re-analysis of the deposited data

Results flagged for a closer look

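In the genes below, which were named by their size, the log2 fold change by Ctbp loss without Dux differed from that with Dux by edgeR's interaction test, which called 19.5% of all genes. Up to 6 per direction were chosen for the size of this difference, so how many are listed is not a result. Among genes with a higher value without Dux, the difference was 8.27 for Cplx2, 7.86 for Hkdc1, 7.6 for Nostrin, 6.45 for Klb, 6.44 for Cubn, 6.42 for Srgn, 5.76 for Slfn9 and 5.17 for Tfpi. It was 4.11 for Gpx2, 3.97 for Plet1, 3.9 for Pnma5, 3.87 for Misp, 3.77 for Slc5a4b, 3.71 for Slc25a34, 1.96 for Dnmt3l and 1.21 for Tet1. Most of these genes were near the floor in DuxKO, where leaving out 1 DuxKO library moved the difference of Hkdc1 to 11.03, of Nostrin to 10.78, of Klb to 10.15, of Srgn to 11.62, of Slfn9 to 8.93, of Tfpi to 10.03, of Misp to 6.19, of Slc5a4b to 6.94 and of Slc25a34 to 6.89. That of Cplx2 was not called with either WT library left out and was 12.42 without CtbpDKO replicate 2. Those of Slc25a34, Slc5a4b and Zfp521 lost their call in some fits with 1 library left out.

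Among genes with a lower value without Dux, the difference was −3.53 for Tagln, −3.18 for Chac1, −2.6 for Pttg1, −2.4 for Trib3, −2.38 for Fabp5, −2.1 for Dgki and −1.89 for Bag2. It was −1.57 for Clip3, −1.56 for Igfbp4, −1.18 for Zfp521, −0.99 for Slc2a3, −0.96 for H1f4, −0.93 for H2bu2, −0.86 for Rps14, −0.82 for Chchd10 and −0.68 for H1f5.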

How the results depend on the processing

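No called value changed direction under any alternative run. Of 242 called genes named in the text or by the rule, 214 kept call and direction under every alternative and 28 lost a call in at least 1 (21 losses in fits of all libraries and 67 with 1 left out). Among them were Fabp5 (−0.21, edgeR adjusted p 0.268, without Ctbp_DuxTKO replicate 1), Cox6c (−0.51, 0.263, without Ctbp_DuxTKO replicate 1) and mt-Cytb (0.47, 0.136, without DuxKO replicate 1). A minimum of 1 on the log2 scale left 3884 genes (2889 higher, 995 lower), 1766 for the difference with and without Dux (1274 and 492), 353 at day 3 (144 and 209), and 152 and 46 shared with day 3. Without a filter on low counts 1634 genes were called at day 3 (803 higher, 831 lower), and the genes lower in Ctbp_DuxTKO and higher at day 3 were 348. With 1 library left out, the calls were 6191 to 7405 (3234 to 3634 higher, 2957 to 3771 lower), those for the difference 2638 to 3710 (1401 to 1693 and 1237 to 2017), at day 3 340 to 607 (149 to 296 and 191 to 311), and those shared with day 3 155 to 365 and 55 to 194. Other scalings moved the calls from 4533 higher and 4152 lower to 4723 and 3852 (upper quartile) and 4659 and 3939 (RLE), and DESeq2 gave 4471 and 3756. With the replicate block they were 4292 and 3939, of which 4263 and 3909 were called in the same direction without it. Libraries of the same number did not deviate together (correlations from −0.098 to 0.065). This shows no shift common to them but not how they were prepared, which the labels do not say. Where both groups were at or under 3 counts, a difference was not detectable at this depth.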
